A study of Mus musculus with 5 samples.

Results

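The genes described here are 9 regulators that set and hold epidermal and epithelial identity: the transcription factors Trp63, Sox2, Grhl1, Grhl2, Grhl3, Ovol1 and Ovol2, and the splicing regulators Esrp1 and Esrp2. They were taken by name, and every probe set annotated to a single 1 of these symbols was used, which gave 17 of the 45101 probe sets of the array and 9 of the 18193 genes named from it. RNA came from B9 cells, a mouse line from cutaneous squamous cell carcinoma with the genotype HRAS-Q61L, a mutation that activates RAS, which all groups share. Treatment lasted 17 h, with vemurafenib (PLX4032) at 1 µM (2 arrays), with PLX7904 at 1 µM (2 arrays) or with 0.2% DMSO as the vehicle (1 array). Vemurafenib blocks mutant BRAF, but where RAS is mutated it can increase MAPK signalling. PLX7904 is a BRAF inhibitor of the class called paradox breakers, which were designed not to do so. By the labels' volumes the compound stock made up 0.02% of the medium. No label names the stock's solvent, so in each comparison with DMSO a compound and a different amount of solvent cannot be told apart. The cells are 1 line. The labels call the arrays of a compound biological replicates but do not say what was separate (dish, passage or day), so p-values measure only the spread between these arrays.

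As background, p63 (the product of Trp63) is the master regulator of stratified epithelia and keeps basal keratinocytes proliferative. The grainyhead-like factors Grhl1, Grhl2 and Grhl3 drive epithelial junctions and the skin barrier. Ovol1 and Ovol2 are zinc finger repressors that hold back mesenchymal genes and, in the epidermis, promote the exit of progenitors towards differentiation. Esrp1 and Esrp2 are RNA-binding proteins that impose the epithelial pattern of alternative splicing. Sox2 is a stem cell factor that is low in normal interfollicular epidermis and is expressed in squamous carcinomas of the skin.

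The values are MAS5 signals, 1 intensity per probe set and array on a linear scale. Each gene was tested from its brightest probe set, on log2(signal + 3.34), a scale that understates the change of dim genes. The test covered the 10852 genes whose mean signal reached 47.4, the median over all values. All 9 regulators were among them, and 16 of their 17 probe sets reached that level. The threshold was an adjusted p of 0.05 in limma over all these genes, and "passed" refers to it. For its spread the single DMSO array borrows that of the treated groups, and each comparison with DMSO uses this array. Arrays had median signals between 44.1 and 51.9, and their log2 signals correlated at 0.980 to 0.990 between arrays.

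None of the 9 regulators passed in either comparison with DMSO, and 1, Esrp1, passed between the compounds, where it was lower with vemurafenib. In the comparison of vemurafenib with DMSO, 10.6% of all genes tested passed (5.43% higher and 5.21% lower), against 0 of the 9 regulators. Between the compounds 13.3% of all genes passed (6.43% higher and 6.87% lower), so that 1 of 9 is near the background. With PLX7904 against DMSO 0% of all genes passed in limma. An unadjusted p under 0.05 was reached by 0 regulators for vemurafenib against DMSO (25.9% of all genes), by Grhl3 alone for PLX7904 against DMSO (722 genes, 6.65%), and by Grhl2, Esrp1 and Esrp2 between the compounds (27.3%). The median size of the regulators' log2 differences, sign ignored, was 0.21 for vemurafenib against DMSO, 0.15 for PLX7904 against DMSO and 0.19 between the compounds. Over all genes tested it was 0.20, 0.11 and 0.17. The largest was 0.72, for Grhl3 with PLX7904 against DMSO. The signed medians were -0.17, -0.08 and 0.00 for the regulators and -0.05, -0.01 and -0.04 for all genes.

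**Figure D1:**
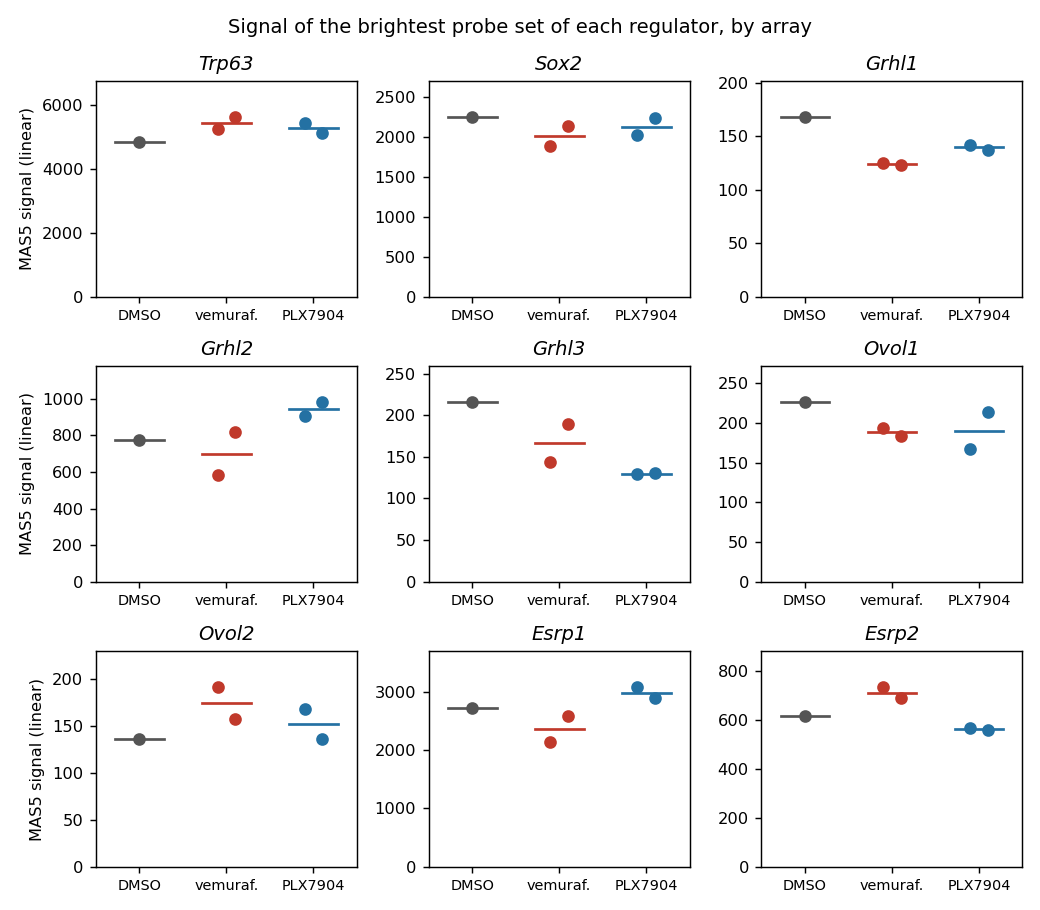
MAS5 signal (linear scale from 0, a scale of its own in each panel) of the brightest probe set of each of the 9 regulators; points are arrays and bars are group means. The 2 vemurafenib arrays of Esrp1 and Grhl2 lie below the 2 PLX7904 arrays, those of Esrp2 lie above them, and the 5 Trp63 arrays lie between 4832 and 5629.

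Trp63 gave the narrowest intervals of the group. Its brightest probe set (1418158_at) read 4832 with DMSO, 5239 and 5629 with vemurafenib, and 5432 and 5132 with PLX7904. All treated arrays lay above the DMSO array, and the arrays of the 2 compounds overlapped. Trp63 was 1.12-fold higher with vemurafenib than with DMSO (95% interval 0.986 to 1.28, adjusted p = 0.245) and 1.09-fold higher with PLX7904 (0.959 to 1.24, adjusted p = 0.832). Between the compounds the ratio was 1.03 (0.925 to 1.14, adjusted p = 0.752). That interval spans less than the one of any other regulator in this comparison.

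A second Trp63 probe set (1452027_a_at) gave 493 with DMSO, 621 and 664 with vemurafenib, and 497 and 444 with PLX7904, so that both vemurafenib arrays stood above all others. With every probe set fitted as its own row, it was 1.36-fold higher with vemurafenib than with PLX7904 (95% interval 1.13 to 1.64, adjusted p = 0.0451), where 9.17% of all probe sets passed. Against DMSO it was 1.30-fold higher (1.04 to 1.63) and did not pass (adjusted p = 0.155), where 7.15% of probe sets did. The other Trp63 probe sets were dim. Probe set 1459581_at read 171 with DMSO and 115 to 162 on the treated arrays, and 1451876_a_at read 65.5 with DMSO and 59.9 to 89.8 on the treated arrays. Neither passed in any comparison. Trp63 is known to give transcripts from separate promoters and with different 3' ends, and which of them each probe set reads was not tested.

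Sox2 has 1 probe set, which read 2252 with DMSO, 1887 and 2141 with vemurafenib, and 2026 and 2237 with PLX7904. The DMSO array was the highest, and PLX7904 replicate 2 lay just under it. Sox2 was 1.12 times lower with vemurafenib than with DMSO (95% interval 0.943 to 1.33 times, adjusted p = 0.397; log2 -0.07 without vemurafenib replicate 1 and -0.25 without replicate 2), and the compounds differed by a log2 value of -0.08 (SE 0.09, adjusted p = 0.618).

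None of the 3 grainyhead-like genes passed in any comparison. Grhl1, a factor of epidermal cohesion and of desmosomal cadherin genes, read 168 with DMSO, 125 and 123 with vemurafenib, and 142 and 138 with PLX7904. Its DMSO array was the highest and both vemurafenib arrays were the lowest, at 1.35 times lower than DMSO (95% interval 0.918 to 1.98 times, adjusted p = 0.312). The interval includes no change.

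Grhl2, which activates Cdh1 and other junction genes in many epithelia, read 776 with DMSO on its brightest probe set (1427046_at). The vemurafenib arrays read 585 and 817, and the PLX7904 arrays 906 and 982. The 2 vemurafenib arrays lay on either side of DMSO, and both lay below both PLX7904 arrays. Grhl2 was 1.36 times lower with vemurafenib than with PLX7904 (95% interval 1.09 to 1.70) and did not pass (adjusted p = 0.0702). It passed after leaving out probe sets open to several transcripts (adjusted p = 0.0466), with the replicate number as a block (adjusted p = 0.0231) and without vemurafenib replicate 2 (log2 -0.69, adjusted p = 0.00106). Without vemurafenib replicate 1 the difference was -0.21 (adjusted p = 0.498). Its other probe sets (1431877_a_at, 1431878_at and 1452643_at) had mean signals of 73.9, 48.7 and 16.5, and their replicates lay far apart: 1431877_a_at read 105 and 41.7 on the 2 vemurafenib arrays. The mean of all 4 probe sets turned the sign between the compounds (log2 0.16).

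Grhl3, which drives terminal differentiation and barrier formation, showed the largest difference from DMSO among the 9 with PLX7904, while with vemurafenib Grhl1 lay farther from DMSO. It read 216 with DMSO, 144 and 189 with vemurafenib, and 129 and 131 with PLX7904. All 4 treated arrays lay below the DMSO array, and the PLX7904 arrays lay lowest and close together. With PLX7904 it was 1.64 times lower than with DMSO (95% interval 1.11 to 2.43, unadjusted p = 0.0173), and it did not pass after adjustment over all genes (adjusted p = 0.584 in limma). With vemurafenib it was 1.30 times lower than with DMSO (0.882 to 1.92 times, adjusted p = 0.381), and the ratio of vemurafenib to PLX7904 was 1.26 (0.919 to 1.74, adjusted p = 0.335). Both differences from DMSO rest on the 1 DMSO array. Without vemurafenib replicate 1 or 2 the log2 difference from DMSO with vemurafenib was -0.19 or -0.58, and that between the compounds 0.53 or 0.14.

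The sequence upstream of Grhl3 is shown because its difference from DMSO with PLX7904 was the largest of any regulator in either comparison with DMSO. The window is the 250 bases before its start in RefSeq (GRCm38.p6, chr4:135573633-135573882, minus strand), printed 5′ to 3′ with matches to CACCTG in capitals. CACCTG is an E-box, the type of site that Snail and Zeb repressors bind.
Grhl3: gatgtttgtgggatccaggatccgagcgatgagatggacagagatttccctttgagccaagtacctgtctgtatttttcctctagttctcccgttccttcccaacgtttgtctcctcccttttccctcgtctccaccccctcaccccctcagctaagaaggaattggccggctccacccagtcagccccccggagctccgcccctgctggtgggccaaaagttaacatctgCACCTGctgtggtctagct
The window holds 1 match, which begins 19 bases before the start. Searched on both strands, CACCTG was in 17.2% of all 32851 promoter windows of this length. The sequence table held 5 windows for 4 of the regulators (Grhl1, Grhl3, Ovol2 and Sox2), and the other 4 held no match. None of the 5 held the AP-1 motif TGANTCA (6.75% of all windows) or the grainyhead motif AACCNGTT (1.79%). A match is a run of letters and not a measured binding site.

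With vemurafenib the arrays of Ovol1 and Ovol2, which share targets, lay on opposite sides of DMSO, but neither gene passed and both intervals include no change. The brighter Ovol1 probe set (1419051_at) read 226 with DMSO, 194 and 184 with vemurafenib, and 167 and 214 with PLX7904. The DMSO array was the highest, and the arrays of the compounds overlapped. Ovol1 was 1.19 times lower than DMSO with either compound (95% interval 0.844 to 1.69 times for each), and the ratio between the compounds lay within 0.753 and 1.33. Without PLX7904 replicate 1 or 2 the log2 difference of PLX7904 from DMSO was -0.08 or -0.43. The dimmer probe set (1419052_at) read 69.0 with DMSO, 43.2 and 42.8 with vemurafenib, and 37.2 and 70.8 with PLX7904.

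Ovol2 read 136 with DMSO, 191 and 158 with vemurafenib, and 168 and 136 with PLX7904. Both vemurafenib arrays lay above DMSO, and PLX7904 replicate 2 read the same as DMSO. The ratio of vemurafenib to DMSO was 1.27 (95% interval 0.854 to 1.88) and did not pass (adjusted p = 0.446). Its log2 difference of 0.34 became 0.20 without vemurafenib replicate 1.

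Esrp1 read 2719 with DMSO, 2137 and 2589 with vemurafenib, and 3077 and 2889 with PLX7904. The vemurafenib arrays were the lowest and the PLX7904 arrays the highest, with the DMSO array between them. Esrp1 was 1.27 times lower with vemurafenib than with PLX7904 (95% interval 1.09 to 1.47, adjusted p = 0.0422). Neither compound moved it past the threshold against DMSO, with log2 differences of -0.21 for vemurafenib (SE 0.12, adjusted p = 0.301) and 0.13 for PLX7904 (SE 0.12, adjusted p = 0.902). Without vemurafenib replicate 1 or 2 the former was -0.07 or -0.35, and without PLX7904 replicate 1 the latter was 0.09. The call between the compounds is close to the threshold and was kept in 9 of 18 alternatives. It ended without vemurafenib replicate 1 (log2 -0.20, adjusted p = 0.373), without PLX7904 replicate 1 (-0.30, adjusted p = 0.135) and without PLX7904 replicate 2 (-0.39, adjusted p = 0.0683). Centring each array on its median moved it to -0.21 (adjusted p = 0.230), and without the intensity trend the adjusted p was 0.219. The other alternatives that ended it left the adjusted p between 0.0604 and 0.0931. Its sign was negative in all 18.

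The paralog Esrp2 did not pass in any comparison. Its brighter probe set (1433683_at) read 619 with DMSO, 734 and 689 with vemurafenib, and 569 and 558 with PLX7904. Both vemurafenib arrays lay above DMSO and both PLX7904 arrays below it. Esrp2 was 1.26-fold higher with vemurafenib than with PLX7904 (95% interval 1.07 to 1.48, adjusted p = 0.0616). It passed after quantile normalization (log2 0.36, adjusted p = 0.0468), cyclic loess (0.37, adjusted p = 0.0459) and median centring (0.46, adjusted p = 0.0212). The dimmer Esrp2 probe set (1419977_s_at) overlapped between the compounds, with 148 and 117 for vemurafenib against 117 and 179 for PLX7904.

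**Figure D2:**
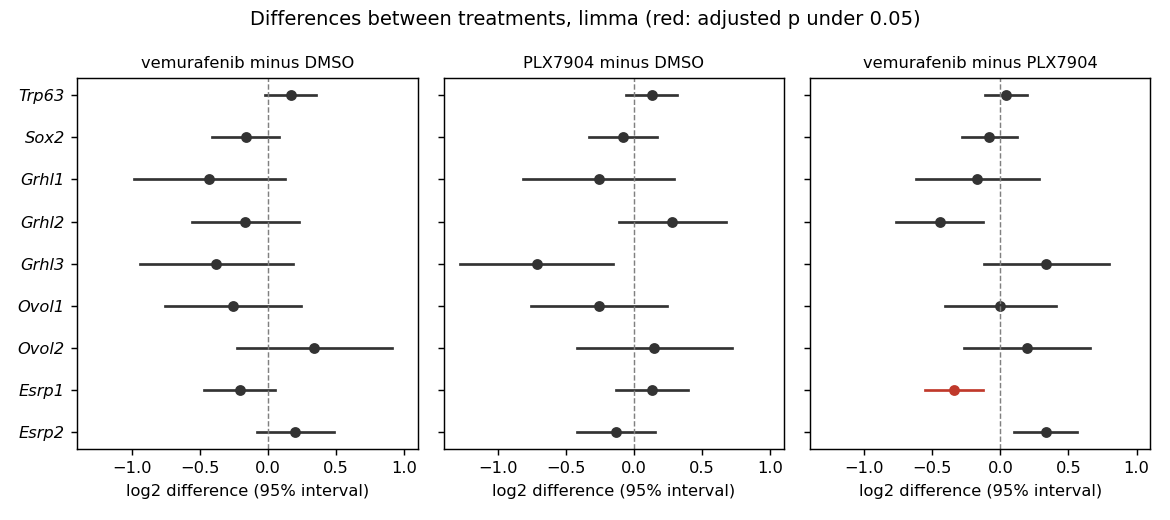
Log2 differences of the 9 regulators in the 3 comparisons, with 95% intervals from limma on log2(signal + 3.34); red marks an adjusted p under 0.05. The only red point is Esrp1 between the compounds at -0.34, and Esrp2 lies at 0.33 on the other side of 0.

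**Figure D3:**
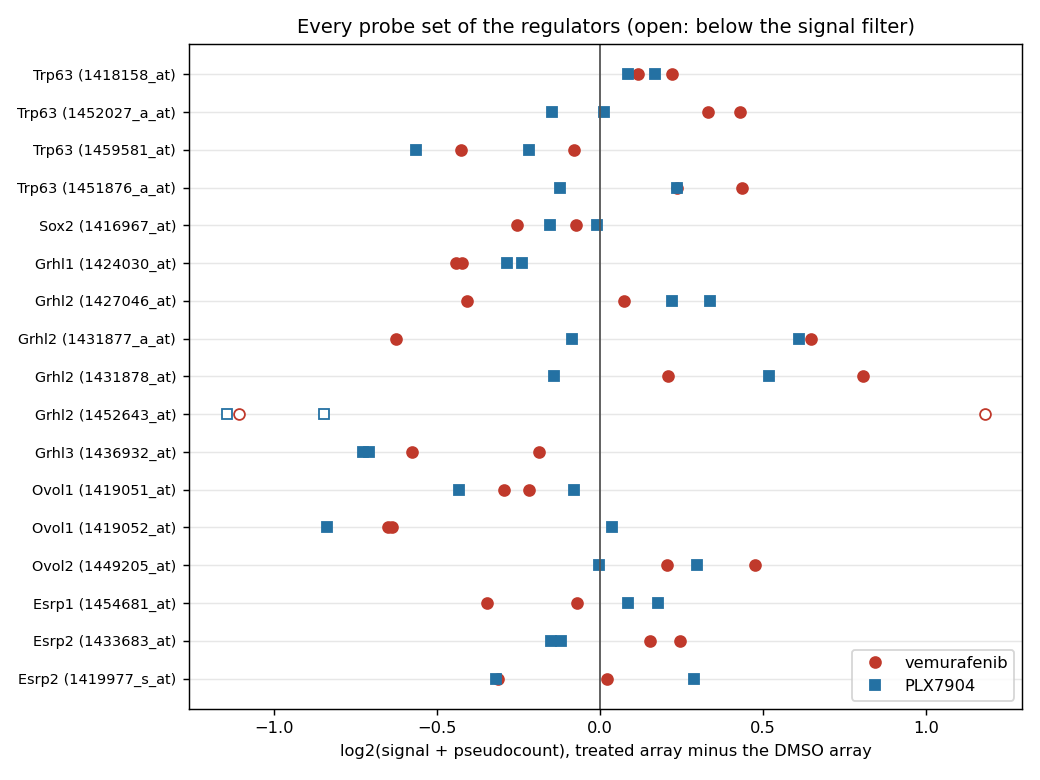
All 17 probe sets of the 9 regulators, as log2(signal + 3.34) of each treated array minus the DMSO array; circles are vemurafenib arrays, squares PLX7904 arrays, and open symbols mark the probe set below the signal filter. The 2 arrays of a compound lie close together for bright probe sets such as 1418158_at of Trp63 and far apart for dim ones such as 1431877_a_at of Grhl2.

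For the 4 regulators with more than 1 probe set, each result above belongs to the probe set named with it. Between the compounds, the arrays of the 2 groups did not overlap for 5 of the 9 regulators (Grhl1, Grhl2, Grhl3, Esrp1 and Esrp2), against 56% of all genes tested. Against the DMSO array they did not overlap for 8 of 9 with vemurafenib (81.9% of all genes) and for 8 of 9 with PLX7904 (66.4%). By their signed values, 4 regulators lay above 0 and 5 below it between the compounds, and 3 above and 6 below for vemurafenib against DMSO. Differences went with brightness: for vemurafenib against DMSO the median log2 difference was -0.18 among the dimmest 25% of genes and 0.05 among the brightest 25%. The part of this in the values of the dim regulators Grhl1, Grhl3, Ovol1 and Ovol2 was not tested. With each gene centred on its own mean over the 5 arrays, the genes with the profiles nearest to that of Esrp1 were Trmt6, Mypop and Pttg1, each within a root mean square difference of 0.03 on the log2 scale, where Esrp1 itself spans 0.53. This is a description over 5 arrays that share their scaling.

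Of 16 keratinocyte markers 13 passed the signal filter, and Krt14 (20571 with DMSO) and Krt5 (12250) were bright on every array. Of 8 fibroblast, 6 endothelial, 7 melanocyte and 7 immune markers, 1, 1, 2 and 2 passed it. Simple epithelial and keratinocyte markers both moved with the compound. Of 7 simple epithelial markers 5 (Krt8, Krt18, Krt19, Epcam and Cldn4) rose with vemurafenib against DMSO and against PLX7904. Over all genes tested 5.43% and 6.43% were higher in these comparisons. Against DMSO the Krt8 call (log2 0.29) was kept in 9 of 16 alternatives. It ended without vemurafenib replicate 1 (0.30, adjusted p = 0.0778) or 2 (0.29, adjusted p = 0.0792) and after quantile normalization (0.18). That of Cldn4 ended without replicate 1 (0.45) or 2 (0.46). The summed simple epithelial markers read 42342 with DMSO, 60266 and 58790 with vemurafenib, and 46421 and 44930 with PLX7904. The fibroblast marker above the filter, Pdgfra, rose with vemurafenib, from 83.3 with DMSO to 264 and 231, and read 138 and 132 with PLX7904. The melanocyte marker Pmel rose from 12.4 with DMSO to 85.5 and 82.8 (adjusted p = 0.00938), and read 72.2 and 60.8 with PLX7904. Its DMSO reading lay below the filter of 47.4, which Pmel reached through the treated arrays, and the rise rests on this 1 array. The other melanocyte marker above the filter lay below 0 on the log2 scale for vemurafenib against DMSO and was not called. The 1 endothelial marker above the filter also lay below 0 in that comparison (log2 -2.16) and was not called. The immune marker Coro1a rose from 229 to 401 and 467 (adjusted p = 0.0101), and read 311 and 271 with PLX7904. The summed keratinocyte markers read 132077 with DMSO, 154043 and 153715 with vemurafenib, and 138697 and 135491 with PLX7904. In bulk RNA a different number of cells of a type and a different amount of RNA per cell cannot be told apart, and the part of either, or of any of these markers, in the values of the regulators was not tested.

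Genes that these regulators are known to act on were read in the same comparison of vemurafenib with DMSO. There 5.43% of all genes tested rose and 5.21% fell, at a median log2 difference of -0.05. Some genes stand on more than 1 list, so the lists are not separate results. Epcam and Cldn4 are also among the simple epithelial markers, and Itga6, Col17a1, Krt5 and Dsp among the keratinocyte markers. Of 15 p63 targets tested 3 rose (Hbegf, Itga6 and Col17a1) and 0 fell, at a median log2 difference of 0.05. Krt5, also a p63 target, did not pass (log2 -0.21, adjusted p = 0.0749), but passed after quantile normalization (-0.34) and cyclic loess (-0.32). Between the compounds 4 of the 15 were higher with vemurafenib and 1, Krt5, lower (-0.23, adjusted p = 0.0175). Over all genes 6.43% and 6.87% were. That Krt5 call was kept in 13 of 18 alternatives. Of 14 grainyhead targets 2 rose (Epcam and Cldn4) and 2 fell (Dsp and Macc1), at a median of -0.08. The calls of Cldn4 (log2 0.45 and 0.46) and Dsp (-0.24 and -0.27) ended without either vemurafenib array, and that of Col17a1 (0.32) without vemurafenib replicate 2. Epcam, an epithelial adhesion protein, rose 1.51-fold (95% interval 1.36 to 1.67), while Cdh1, the E-cadherin gene and a target of Grhl2, did not pass (log2 -0.21, SE 0.11, adjusted p = 0.270). Tgm1, the transglutaminase that Grhl3 activates, was 1.28 times lower and did not pass (adjusted p = 0.0749). Of 11 genes on a list of mesenchymal and other genes that Ovol factors repress, Vim rose, Id2 and Fn1 fell, and the median was 0.03. Id2 is not a mesenchymal marker. The Fn1 call ended without vemurafenib replicate 2 (log2 -0.31). Zeb1, the mesenchymal repressor that opposes Grhl2 and Ovol2, was dim (56.2 with DMSO) and did not pass (adjusted p = 0.788).

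The array reads whole transcripts near their 3' ends and gives no measure of splicing, so the function of the Esrp proteins was not measured. Of 17 transcripts known to be spliced by them, 3 rose in level (Cd44, Slk and Rac1) and 2 fell (Enah and Mbnl1), with a median of -0.05. Over all genes tested 5.43% rose and 5.21% fell in this comparison of vemurafenib with DMSO, also with a median of -0.05. Enah, an actin regulator with an Esrp-dependent exon, read 6450 with DMSO, 4068 and 4022 with vemurafenib, and 6544 and 7124 with PLX7904. It fell 1.59 times against DMSO, and was 1.69 times lower than with PLX7904 (adjusted p = 1.2e-04). Fgfr2, whose epithelial exon is the classical Esrp target, read 271 with DMSO and 149 to 224 on the treated arrays and did not pass with vemurafenib against DMSO (log2 -0.56, adjusted p = 0.201). Without vemurafenib replicate 2 it passed (-0.84, adjusted p = 0.0434), and without replicate 1 it was -0.27. The Mbnl1 call ended without either vemurafenib array (log2 -0.27 and -0.31) and that of Slk without replicate 2 (0.44). The Slk value depends on the probe set, since it became -0.29 after leaving out probe sets open to several transcripts.

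Of 14 other epithelial transcription factors tested, 1 rose (Prdm1) and 2 fell (Ehf and Trp73) with vemurafenib against DMSO, and 2 were higher and 3 lower than with PLX7904. The shares over all genes tested were 5.43% and 5.21% against DMSO, and 6.43% and 6.87% against PLX7904. Prdm1, which encodes BLIMP1, a transcriptional repressor that acts in late keratinocyte differentiation, read 135 with DMSO, 350 and 406 with vemurafenib, and 133 and 120 with PLX7904. Ehf, an ETS factor of epithelia, was 1.62 times lower with vemurafenib than with DMSO and 1.63 times lower than with PLX7904. Trp73, the p53 family relative of Trp63, was 3.05 times lower with vemurafenib than with DMSO at a mean signal of 96.5 (95% interval 1.68 to 5.53). It read 142 on the 1 DMSO array, 91.4 and 114 with PLX7904, and 37.9 and 51.7 with vemurafenib, on either side of the filter of 47.4. Averaging its probe sets gave -0.30 on the log2 scale and ended the call. Of 13 genes on a list of family relatives and other splicing regulators, Rbfox2 rose and Trp73 and Mbnl1 fell. The calls of Trp73 and Mbnl1 are the same ones counted in lists above. The Rbfox2 call was kept in 9 of 17 alternatives. It ended without vemurafenib replicate 1 (log2 0.49, adjusted p = 0.135) or 2 (0.57, adjusted p = 0.0573), with the replicate block (0.54, adjusted p = 0.0553) and after leaving out probe sets open to several transcripts (0.38). Of 14 epidermal differentiation genes 4 rose (Ivl, Sprr1a, Sprr1b and Sbsn) and 0 fell, at a median of 0.29. The Sbsn value went from 0.45 to 0.08 (adjusted p = 0.725) after leaving out probe sets open to several transcripts.

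**Figure D4:**
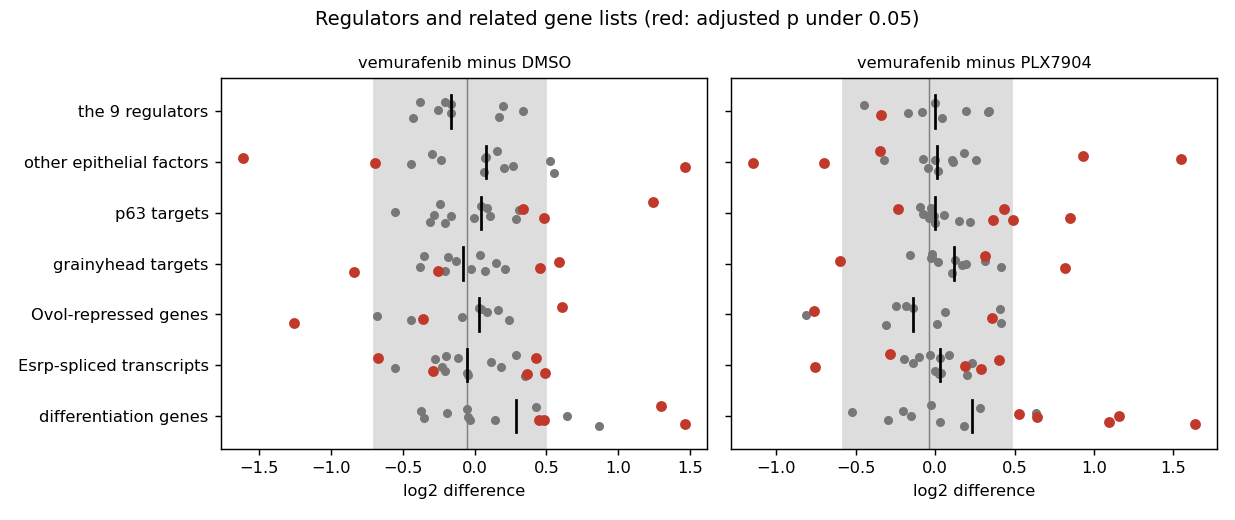
Log2 differences of the 9 regulators and of 6 lists of related genes for vemurafenib against DMSO (left) and against PLX7904 (right); each point is a gene, red marks an adjusted p under 0.05, black bars are medians and the grey band holds the middle 90% of all genes tested. The 9 regulators all lie within the band, while the other lists hold genes beyond it.

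Without the intensity trend in limma's variance model, 43 genes in all passed for vemurafenib against DMSO and 35 between the compounds, with no regulator among them, and 6 of the 67 called values of the related genes and markers remained.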

How the data were processed

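The deposited values are intensities, 1 MAS5 signal per probe set on each of 5 Affymetrix arrays, made with MAS5 per the submitters' processing notes (version not given in the sources used here). The trimmed mean of each array, without the lowest and highest 2%, was about 500. Detection calls were not used here. Probe sets were named from the platform annotation, and all 9 regulators matched the GRCm38.p6 gene table. For a gene with several probe sets the one with the highest mean was used. Log2(signal + 3.34), the 10th percentile, was fitted with 3 group means in limma 3.58.1 (R 4.3.3; lmFit, eBayes with a trend; 2 residual and 8.27 prior degrees of freedom), two-sided, with Benjamini-Hochberg adjustment over 10852 genes. The fit was also run on data simulated from its own variance model. Such a run cannot test whether that model holds for these arrays. Figures used Python 3.11.15 and matplotlib 3.10.9.

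Every regulator was named. From the related lists the text names called genes, up to 3 at either end of a list, and genes with a known role with a regulator. Not every such gene is named, and several called between the compounds are only counted or are left out. The regulators, lists and tests were chosen with earlier results of these data known. Replicate numbers showed no pairing: the deviations of same-numbered arrays of the 2 compounds correlated at r = -0.0071. Alternatives changed the pseudocount, filter, normalization, variance model, probe sets and arrays used, and added a replicate block.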

Additional observations from a re-analysis of the deposited data

How the results depend on the processing

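In the comparisons with DMSO no regulator passed under any alternative run. Between the compounds the count of 1 regulator became 0 without the filter, without the intensity trend and with the mean of all probe sets. It became 2 with quantile normalization, cyclic loess, leaving out probe sets open to several transcripts, and with the replicate block. Leaving out 1 treated array gave 0 to 2. It was 1 in the others, but with every probe set as a row this was Trp63 and with median centring, also over the genes tested alone (added after seeing the data), it was Esrp2. Median centring moves all values by 0.18 for vemurafenib against DMSO and 0.13 between the compounds. Over all genes, calls for vemurafenib against DMSO went from 1154 to 657 without the filter, 443 with the mean of all probe sets and 43 without the trend. Between the compounds they went from 1443 to 978 without the filter, 660 with the mean of all probe sets and 35 without the trend. For PLX7904 against DMSO they went from 0 to 3 with the filter at the 75th percentile, with median centring or after leaving out probe sets open to several transcripts, 4 with the replicate block, and 27 and 29 without a vemurafenib array.

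Some values turned sign, and the cause was not tested. They include 4 that had passed, Lama3 (1.12) and Rac1 (0.29) between the compounds and Slk (0.49) and Mbnl1 (-0.29) for vemurafenib against DMSO. Grhl2 between the compounds (-0.45) also turned. With median centring, Sox2 (0.0168), Grhl2 (0.0143) and Ctnnd1 (0.0627) turned for vemurafenib against DMSO, and Sox2 (0.0463) between the compounds. With the mean of all probe sets, Grhl2 (0.0971), Krt14 (-0.162) and Mbnl1 (0.0176) turned for vemurafenib against DMSO. So did Trp63 (-0.0685) and Grhl2 (-0.0664) for PLX7904 against DMSO, and Grhl2 (0.163), Lama3 (-0.173) and Rac1 (-0.0203) between the compounds. For vemurafenib against DMSO, Klf4 read -0.0582 and -0.0390 and Krt14 -0.0657 and -0.0475 after quantile normalization and cyclic loess. Krt14 (-0.00926) and Slk (-0.291) turned after leaving out probe sets open to several transcripts. Ovol1 between the compounds was 8.44e-05 without a pseudocount, 0.0694 after quantile normalization, 0.129 and 0.0359 with the 2 ways of median centring and 0.0761 after cyclic loess. Leaving out 1 array gave -0.406 to 0.0730 for Grhl2 with vemurafenib against DMSO and -0.00277 to 0.297 for Ovol2 with PLX7904 against DMSO. Between the compounds it gave -0.0111 to 0.0924 for Trp63, -0.173 to 0.00801 for Sox2 and -0.176 to 0.176 for Ovol1. The filter at the 75th percentile left Grhl1, Grhl3, Ovol1 and Ovol2 untested. These genes are dim, which limits their precision.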

Other observations

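Probe sets of 2 transcripts that Esrp proteins splice read unevenly. Of 6 probe sets of Enah above the signal filter, 5 had log2 differences from -0.50 to -1.72 between vemurafenib and PLX7904, of which 2 passed with every probe set as a row, and 1421624_a_at had 0.02 (SE 0.12). The latter read 490 with DMSO, 414 and 393 with vemurafenib, and 393 and 400 with PLX7904. For Cd44, probe set 1452483_a_at read 3070 with DMSO, 5401 and 4404 with vemurafenib, and 3197 and 3318 with PLX7904. Between the compounds it was higher with vemurafenib by 0.58 on the log2 scale (SE 0.10, adjusted p = 0.00583 in limma with every probe set as a row). The brighter 1423760_at and 1434376_at differed by 0.19 (SE 0.06) and 0.14 (SE 0.06), and neither passed in that fit. The exons these probe sets read were not examined.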
